A study of Mus musculus with 12 samples.

Results

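Ribosome footprints on the genes of the Hedgehog pathway were examined in brain and spinal cord of mouse embryos at embryonic day 14.5 (E14.5). The genes were 10 core components chosen by their Ensembl identifiers: the ligand Shh (ENSMUSG00000002633), its receptor Ptch1 (ENSMUSG00000021466), the transducer Smo (ENSMUSG00000001761), the inhibitor Sufu (ENSMUSG00000025231), the transcription factors Gli1 (ENSMUSG00000025407), Gli2 (ENSMUSG00000048402) and Gli3 (ENSMUSG00000021318), the ligand-binding inhibitor Hhip (ENSMUSG00000064325), and the coreceptors Boc (ENSMUSG00000022687) and Gas1 (ENSMUSG00000052957). Of these 10 genes, 2 were among the 10481 genes of the filtered count table, Ptch1 and Sufu. The other 8 identifiers are not among its rows and were not analysed here.

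The study compared the Taiwanese mouse model of spinal muscular atrophy (SMA) with healthy embryos by ribosome profiling, in which the mRNA fragments covered by ribosomes are sequenced and counted for each gene. SMA embryos carried Smn-/-; SMN2tg/0 and control embryos Smn+/-; SMN2tg/0, so that all embryos carried the human SMN2 transgene and the controls had 1 functional Smn allele rather than 2. Each tissue and genotype had 3 libraries, 12 in all, described as biological triplicates from 3 embryos of each genotype. Whether same-numbered brain and spinal cord libraries came from the same embryo is not stated in the sources used here. Whole tissues were used, so that fewer cells of a type and fewer footprints per cell cannot be told apart. There was no matched measurement of mRNA, and footprint counts therefore hold mRNA abundance and ribosome loading together.

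In the Hedgehog pathway, the secreted ligand binds the membrane receptor Patched 1, which in its absence holds Smoothened inactive at the primary cilium. Once Smoothened is released, the Gli factors escape restraint by Suppressor of fused, which is the protein of Sufu, and turn on target genes, among them Ptch1 itself, so that Ptch1 is widely read as a target as well as a receptor. In the embryonic nervous system the ligand comes from the notochord and floor plate, patterns the ventral neural tube, and later sustains progenitor division.

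Ptch1 spans chr13:63508328-63573460 and Sufu chr19:46396896-46488804 in GRCm38.p6, the build of the deposited counts. The 250 bases before an annotated start of each gene, from the RefSeq promoter table (GRCm38), are shown because Ptch1 is a Gli target and the member whose footprints differed most between groups. The Ptch1 window, chr13:63565736-63565985 on the minus strand, lies inside the span of the gene, at 1 of its start sites, and the Sufu window is chr19:46396646-46396895 on the plus strand. Capitals mark the motifs found.
Ptch1: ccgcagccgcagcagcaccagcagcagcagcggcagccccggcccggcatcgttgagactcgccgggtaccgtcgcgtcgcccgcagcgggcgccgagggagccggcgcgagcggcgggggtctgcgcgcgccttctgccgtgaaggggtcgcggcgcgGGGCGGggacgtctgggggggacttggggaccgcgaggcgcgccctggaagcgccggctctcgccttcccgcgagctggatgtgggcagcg
Sufu: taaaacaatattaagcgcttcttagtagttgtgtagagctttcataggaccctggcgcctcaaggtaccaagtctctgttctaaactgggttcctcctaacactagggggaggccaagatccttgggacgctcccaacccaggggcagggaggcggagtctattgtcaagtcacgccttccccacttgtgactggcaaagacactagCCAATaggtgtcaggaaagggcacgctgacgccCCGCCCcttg

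The Ptch1 window had 78.4% G and C and 41 CpG dinucleotides, and 98.9% of the 32851 windows in the table held fewer CpG. In the Sufu window 54% of the bases were G or C and 8 CpG were present, more than in 57% of windows. Both strands were searched for 4 motifs. GGGCGG, the GC box, occurred once in each window and in 32.7% of all windows. CCAAT occurred once in the Sufu window and in 33.8% of all windows, and TATAAA, present in 12.4% of windows, was in neither. The Gli-binding sequence GACCACCCA was in neither window and in 0.225% of all windows.

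The libraries held 3683842 to 9117017 counts in brain and 5162190 to 12793955 in spinal cord, and every SMA spinal cord library was shallower than every control spinal cord library. Tissue labels were checked against markers. The 3 forebrain genes that could be followed, of 16 listed, summed to 520 to 626 CPM (counts scaled to the normalised library total) in the 6 brain libraries, and the 8 Hox genes followed, of 24, summed to 2.19 to 5.58 CPM there. In spinal cord the Hox sum was 389 to 688 CPM. Control spinal cord library 1 stood apart, with a forebrain sum of 163 CPM against 27.0 and 28.3 CPM in the other control cord libraries, and a sum over 10 proliferation genes of 530 CPM against 206 and 224 CPM. SMA spinal cord library 1 also differed from its group, with a forebrain sum of 55.5 CPM against 13.8 and 28.5 CPM. Its sum over 2 liver genes was 158 CPM against 3.69 and 3.11 CPM. Spinal cord comparisons of Ptch1, Sufu and the pathway genes are also given without control library 1 where that library changed a call or moved a value.

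Ptch1 was covered by 192 to 750 raw counts in a brain library and 578 to 2144 in a spinal cord library. Its level, in CPM normalised over all 12 libraries, was 82.1, 57.2 and 73.2 in control brain and 52.5, 44.3 and 57.7 in SMA brain. In control spinal cord it was 163, 144.8 and 134 CPM, and in SMA spinal cord 141, 112 and 122 CPM. All 6 spinal cord libraries lay above all 6 brain libraries. Tissues without overlap were common within a genotype, for 54% of all genes in control and 51.8% in SMA. Within each tissue the SMA and control libraries of Ptch1 overlapped. Mean levels therefore ran from control spinal cord (147 ± 14.3 CPM, SD, n = 3) through SMA spinal cord (125 ± 14.9) and control brain (70.8 ± 12.6) to SMA brain (51.5 ± 6.74), and of the neighbours in this order those of one tissue overlapped and those of different tissues did not.

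Sufu was covered by 256 to 686 raw counts in a brain library and 283 to 817 in a spinal cord library. Its normalised level was 75.0, 67.9 and 65.4 CPM in control brain and 71.9, 74.6 and 71.4 CPM in SMA brain. The spinal cord libraries gave 62.0, 63.6 and 52.4 CPM in control and 47.3, 55.0 and 61.5 CPM in SMA. Sufu thus spanned 47.3 to 75.0 CPM over the 12 libraries, from SMA brain (72.6 ± 1.72 CPM) and control brain (69.4 ± 5.02) to control spinal cord (59.3 ± 6.05) and SMA spinal cord (54.6 ± 7.15). Genotypes overlapped within each tissue, and each brain library lay above each spinal cord library. Within a genotype, tissues were likewise without overlap for 54% of all genes in control and 51.8% in SMA.

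**Figure D1:**
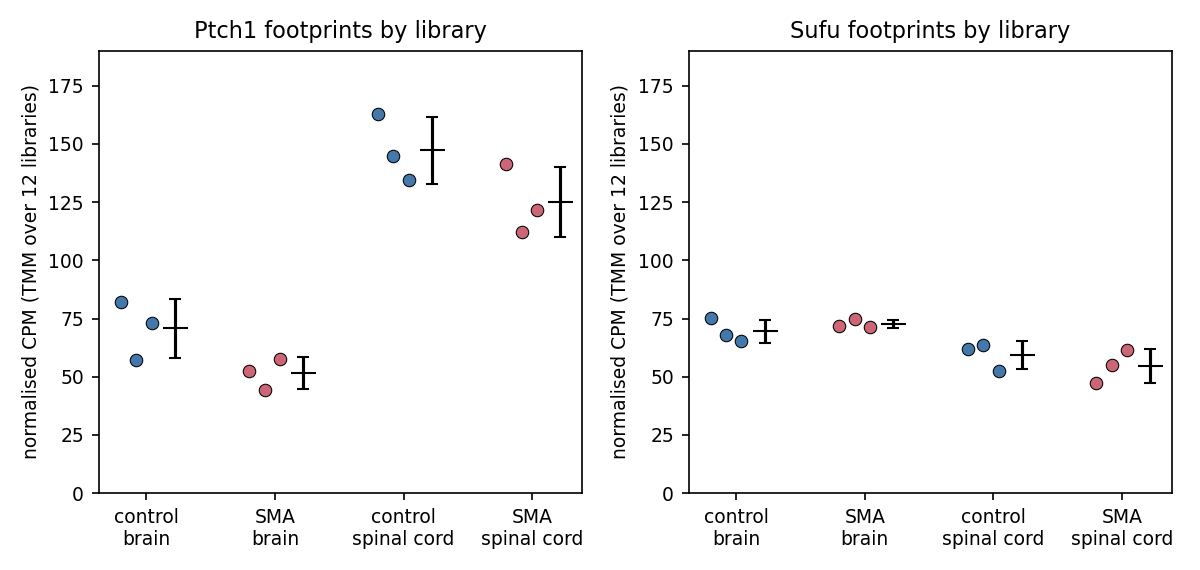
Normalised footprint level of Ptch1 (left) and Sufu (right), in CPM on the vertical axis, for each of the 12 libraries. Points are libraries and the horizontal mark with its bar is the group mean ± SD (n = 3). Ptch1 lay at 112 to 163 CPM in spinal cord and 44.3 to 82.1 CPM in brain, and Sufu stayed between 47.3 and 75.0 CPM.

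Because the deposited lengths differ (14185 bases for Ptch1, 7691 for Sufu), levels of the 2 genes were compared per kilobase. Ptch1 was at 4.99 ± 0.889 CPM per kilobase in control brain and 3.63 ± 0.475 in SMA brain, and at 10.4 ± 1.01 and 8.82 ± 1.05 in control and SMA spinal cord (SD, n = 3). For Sufu these levels were 9.03 ± 0.652, 9.44 ± 0.224, 7.71 ± 0.787 and 7.10 ± 0.930 CPM per kilobase. Per kilobase of the deposited length, the inhibitor was above the receptor in all brain libraries and below it in all spinal cord libraries. In control brain this order rests on the division by length: the mean log2 ratio of Ptch1 to Sufu was -0.87 per base and 0.014 without the division. In SMA brain the ratio stayed negative without it (-0.50). In spinal cord Ptch1 was above Sufu without it too, at means of 147 against 59.3 CPM in control and 125 against 54.6 CPM in SMA. Per kilobase, Ptch1 was a lowly covered gene in brain, where 14.8% of the table's genes lay below it in control and 11.5% in SMA, against 32.0% and 26.6% in spinal cord. The length given spans the union of exons, whereas footprints lie on coding sequence, and a gene with long untranslated regions therefore reads low on this scale. Coding lengths were not used, so which gene was higher per coding base in either tissue was not tested.

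The question for each tissue was whether footprints differed between SMA and control. In brain, Ptch1 footprints were lower in SMA, at 0.729 of the control level (95% confidence interval 0.584 to 0.910), a log2 fold change of -0.46 (SE 0.15). In levels normalised over the brain libraries, control brain had 79.3, 56.4 and 72.2 CPM and SMA brain 52.2, 43.9 and 57.0 CPM, so that the highest SMA library passed the lowest control library. The interval excluded 1, but the adjusted p of the edgeR quasi-likelihood test was 0.902 over all 10481 genes. Ptch1 thus passed the lower of the 2 fold thresholds (log2 change of at least 0.3, unadjusted p below 0.05), which 3.76% of all genes passed (2.57% of all genes in the lower direction), and missed the higher threshold (0.5), which 1.53% passed. Its fold change was lower than that of all but 3.86% of genes, and its p ranked 91 from the smallest.

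Sufu footprints in brain were 1.06 times the control level (95% confidence interval 0.900 to 1.24), a log2 fold change of 0.08 (SE 0.11), with an adjusted p of 0.944 in the same edgeR fit. Normalised over the brain libraries, Sufu was at 72.5, 66.9 and 64.5 CPM in control and 71.5, 73.9 and 70.5 CPM in SMA, so that the genotypes overlapped.

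In spinal cord, Ptch1 footprints were at 0.843 of the control level in SMA (95% confidence interval 0.692 to 1.03). This log2 fold change of -0.25 (SE 0.12) did not pass either threshold in edgeR (adjusted p = 0.684), where 4.19% of genes passed the lower one (2.14% in the lower direction) and 0.983% the higher one. Without control spinal cord library 1, which had the highest Ptch1 level, the log2 fold change was -0.16 (95% confidence interval -0.45 to 0.12), and without SMA spinal cord library 1 it was -0.35 (-0.63 to -0.07), past the lower threshold. With the replicate number as a block the log2 fold change was -0.25, with an interval of -0.45 to -0.05 that excluded 0, and an adjusted p of 0.320 in edgeR. SMA and control libraries come from different embryos, and a shared replicate number is not a known pairing, so that interval carries no extra weight. Sufu was at 0.910 of the control level (95% confidence interval 0.738 to 1.12), with an adjusted p of 0.769 in edgeR, and its log2 fold change was -0.14 with all libraries and -0.10 without control library 1.

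**Figure D2:**
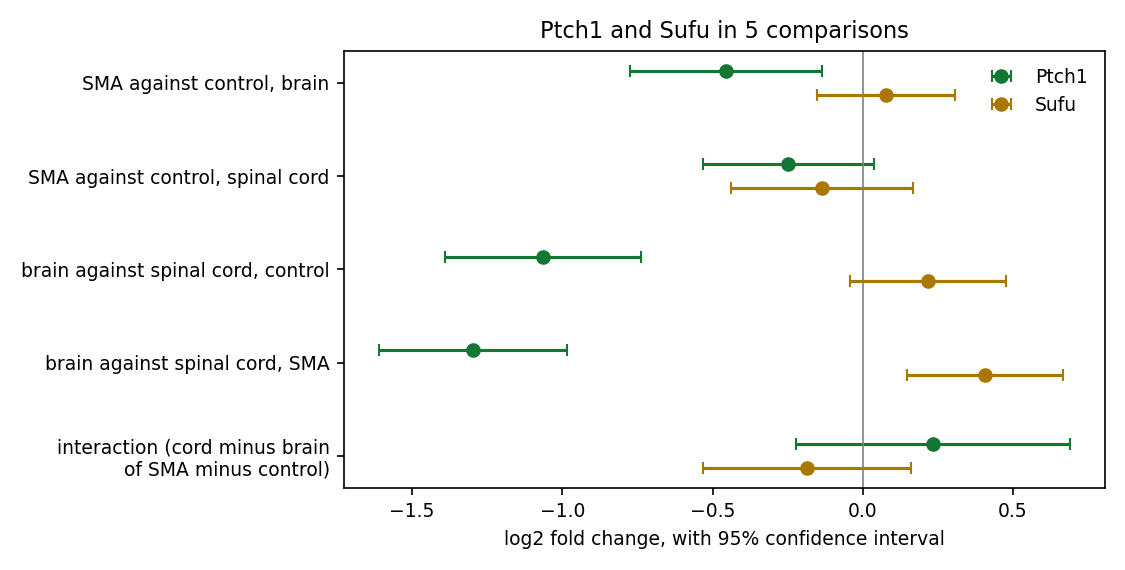
Log2 fold change of Ptch1 (green) and Sufu (brown) in the 5 comparisons, with 95% confidence intervals of the edgeR fit on the horizontal axis. The Ptch1 interval excluded 0 in brain for SMA against control (-0.78 to -0.14) and in both tissue comparisons, and included it in spinal cord (-0.53 to 0.04) and for the interaction.

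Whether the SMA change differed between tissues was tested as an interaction over all 12 libraries. The log2 change in spinal cord minus that in brain was 0.23 for Ptch1 (95% confidence interval -0.22 to 0.69) and -0.19 for Sufu (-0.53 to 0.16), both at an adjusted p of 1 in edgeR. Without control spinal cord library 1 these were 0.31 (-0.16 to 0.79) and -0.15 (-0.53 to 0.22). A larger Ptch1 decrease in brain than in spinal cord was therefore not shown. No gene of the table passed an adjusted p of 0.05 here (0%), while 249 genes (2.38%) had an unadjusted p below 0.05 in edgeR and 198 in DESeq2.

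The brain result for Ptch1 moved with single libraries. Its log2 fold change was -0.34 without control brain library 1 (95% confidence interval -0.68 to 0.00) and -0.35 without SMA brain library 2 (-0.70 to 0.00), with intervals that just reached 0, no longer past the lower threshold. It was -0.59 without control brain library 2 (-0.89 to -0.28) and -0.54 without SMA brain library 3 (-0.91 to -0.18), past the higher threshold in both cases. The direction was the same with each of the 6 libraries left out, and the lowest adjusted p under any alternative tried, in edgeR or DESeq2, was 0.724.

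**Figure D3:**
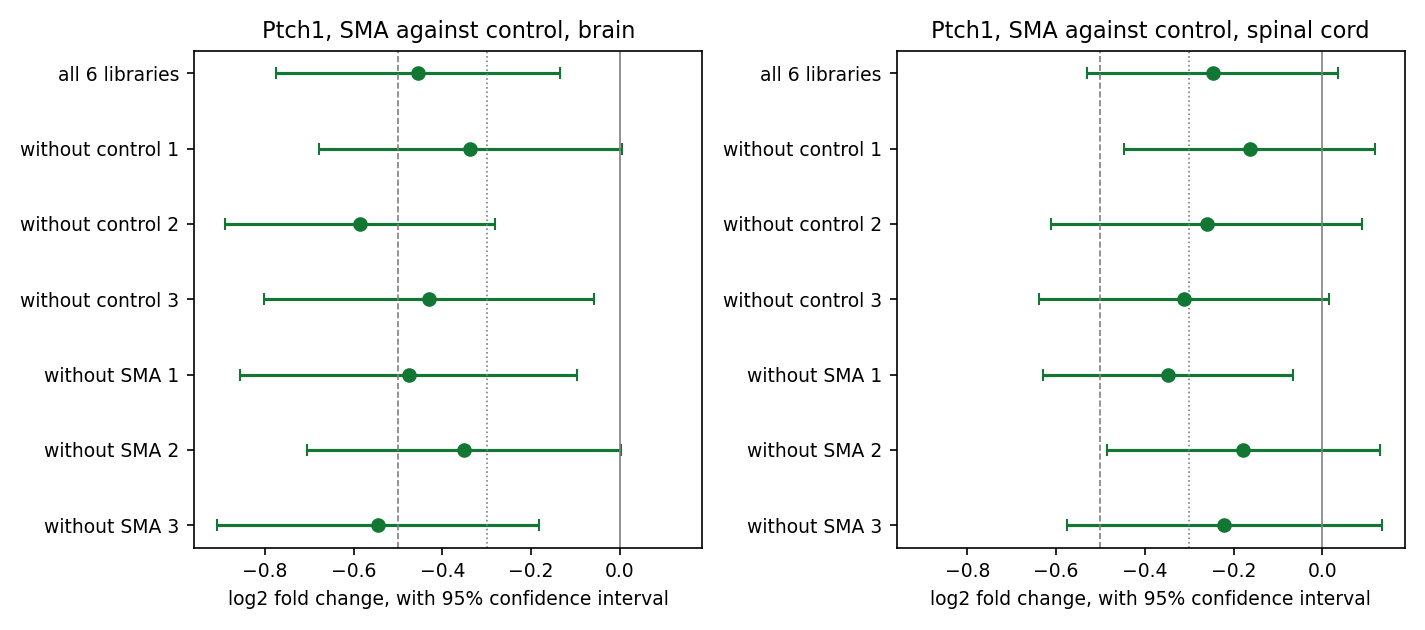
Log2 fold change of Ptch1, SMA against control, from all 6 libraries of a tissue and from the 5 that remain once a library is dropped, in brain (left) and spinal cord (right); bars are 95% confidence intervals, and the dotted and dashed lines mark -0.3 and -0.5. Brain values ran from -0.59 to -0.34 and spinal cord values from -0.35 to -0.16, all below 0.

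Levels of other markers were set beside the Ptch1 values. The floor plate genes Ntn1, a secreted guidance cue, and Sulf1, which trims heparan sulfate, were the 2 of 8 listed that could be followed, and they summed to 296, 155 and 315 CPM in control brain and 189, 173 and 233 CPM in SMA brain. Control brain library 2, the lowest control in Ptch1, was also the lowest in this sum, and SMA brain library 2 was the lowest SMA library in both. Spinal cord differed: control library 3 had the lowest control level of Ptch1 (134 CPM) and the highest floor plate sum (830 CPM). SMA spinal cord library 1 was the highest of its group in Ptch1 (141 CPM), with a sum of 656 CPM against 736 and 656 CPM. Nes, an intermediate filament of neural progenitors, was lower in SMA brain (log2 fold change -0.33, 95% confidence interval -0.57 to -0.10) as 1 of 5 progenitor genes past the lower threshold. The others were Fabp7 (0.17), Ednrb (-0.04), Slc1a3 (-0.05) and Sox9 (-0.16), and the progenitor sum was 932 to 1074 CPM in control and 908 to 1008 CPM in SMA brain. Of 10 proliferation genes, Gmnn, an inhibitor of replication licensing, and Cdc6, a licensing factor, passed the lower threshold as well, both lower in SMA (log2 fold changes of -0.36 and -0.37). Over all genes 3.76% passed this threshold, 2.57% in the lower direction. The median of the 10 was -0.16, with Mcm2 (-0.01), Mcm5 (-0.02) and Ube2c (0.02) near 0. Col1a1, the 1 followed gene of 14 listed for meninges, was at 4.62 to 9.19 CPM in control and 2.46 to 4.82 CPM in SMA brain, past the higher threshold. In spinal cord the proliferation sum was 206 to 530 CPM in control and 165 to 249 CPM in SMA, and without control library 1 the control values were 206 and 224 CPM. Gmnn was lower in SMA past the higher threshold (-0.76, and -0.56 without control library 1), as 1 of 10 where 0.983% of all genes passed. Nes was again lower in SMA (-0.41, and -0.40 without control library 1). Of the other progenitor genes there, Fabp7 (0.32), Slc1a3 (0.24) and Ednrb (0.08) were higher in SMA and Sox9 (-0.16) lower. The progenitor sum was 772 to 879 CPM in control and 860 to 931 CPM in SMA spinal cord. None of these genes passed adjustment in edgeR, with adjusted p of at least 0.902 in brain and 0.684 in spinal cord. The part of these cells in the Ptch1 result was not tested.

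The 5 neuron genes followed, of 14, summed to 3955 to 4753 CPM in control and 4252 to 4739 CPM in SMA brain, and to 3871 to 4842 and 4472 to 5143 CPM in spinal cord; none passed the lower threshold in either tissue. Esam, the 1 endothelial gene followed of 10, was at 21.96 to 25.2 CPM in control and 12.1 to 24.0 CPM in SMA brain. The red cell gene Slc4a1, the 1 followed of 11, was at 1.04 to 1.75 CPM in control and 2.72 to 10.7 CPM in SMA spinal cord, past the higher threshold. The liver genes Apoa2 and Apoh, 2 of 10 listed, summed to at most 4.101 CPM in a brain library. They reached 57.6 CPM in control spinal cord library 3 and 158 CPM in SMA spinal cord library 1. Apoa2 was listed at 0 in all control brain libraries and in 2 of 3 SMA brain libraries, and at 3.55 CPM in the other. Fabp7 and Ngfr, 2 of 11 genes listed for Schwann and sensory cells, summed to 311 to 450 CPM in brain and 262 to 462 CPM in spinal cord; most of the sum was Fabp7, which the progenitor list also holds. No muscle gene of the list could be followed.

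The second question was how the tissues differed. Ptch1 footprints were 2.09 times as high in spinal cord as in brain of control embryos (95% confidence interval 1.67 to 2.62) and 2.46 times as high in SMA embryos (1.98 to 3.05). As brain against spinal cord these are log2 fold changes of -1.06 (SE 0.14) in control and -1.30 (SE 0.14) in SMA, with adjusted p of 0.00120 and 0.000289 in edgeR. The call required an adjusted p below 0.05 and a log2 change of at least 0.5, and it was met by 27.9% of all genes in control and 26% in SMA, with 15.5% and 14.9% lower in brain. The control and SMA estimates share no library. Leaving out any 1 library gave log2 values from -1.19 to -0.94 in control and from -1.38 to -1.18 in SMA, and without control spinal cord library 1 the control value was -0.98 (adjusted p = 0.00181).

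Sufu was somewhat higher in brain, with log2 fold changes of 0.22 in control (95% confidence interval -0.04 to 0.48, adjusted p = 0.159) and 0.41 in SMA (0.15 to 0.67, adjusted p = 0.0245) in edgeR. Neither reached the call, the SMA value because it was below a log2 change of 0.5. Groups did not overlap in either comparison, which was so for 54% of all genes in control and 51.8% in SMA.

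Marker levels also differed between the tissues. The floor plate sum was 155 to 315 CPM in brain and 631 to 830 CPM in spinal cord, higher in every cord library as Ptch1 was, and both genes were called lower in brain in control and in SMA. Proliferation genes went the other way, at 831 to 1001 CPM in brain and 165 to 530 CPM in spinal cord, with 8 of 10 called higher in brain in control (10 of 10 without control spinal cord library 1) and 10 of 10 in SMA. The 5 progenitor genes summed to 908 to 1074 CPM in brain and 772 to 931 CPM in spinal cord, a sum that held genes of opposite direction: Nes was higher in brain (log2 fold change 1.21 in control, 1.26 in SMA) and the glutamate transporter gene Slc1a3 lower (-1.21 and -1.52). Other markers, among them the 8 Hox genes followed, were, like Ptch1, called lower in brain in both genotypes. So were Col1a1 (-2.04 in control and -2.30 in SMA), the nerve growth factor receptor gene Ngfr (-2.19 and -2.42) and the neurofilament genes Nefl (-1.95 and -2.20) and Nefm (-1.90 and -2.26). The neuron genes Elavl2 (-0.17 and -0.20), Elavl3 (0.35 and 0.32) and Map2 (0.21 and 0.16) were not called. Fabp7, listed with Ngfr, was not called either (0.36 and 0.19). Ngfr was at 5.47 to 9.76 CPM in brain and 34.5 to 48.2 CPM in spinal cord. The part of cell composition in the Ptch1 difference was not tested.

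Of 99 other Hedgehog pathway genes listed, 19 could be followed by name, none of them among the 13 listed for ligand release or the 4 for reception. They comprised 4 of 26 genes of ciliary transduction, 10 of 25 of Gli processing and 5 of 32 targets. In SMA against control, 0 of 19 passed the higher threshold in brain or spinal cord, against 1.53% and 0.983% of all genes. At the lower threshold 0 of 19 passed in brain, and in spinal cord 1 did, Numb, an adaptor that promotes degradation of Gli1, which was lower (log2 fold change -0.37, SE 0.15, adjusted p = 0.684 in edgeR). Numb was at 61.4, 45.4 and 45.4 CPM in control and 41.9, 38.3 and 38.5 CPM in SMA spinal cord. Its call rested on control library 1: without it the log2 fold change was -0.20 (95% confidence interval -0.46 to 0.05), and 0 of 19 passed the lower threshold. The median log2 change of the 19 was 0.05 in brain and 0.06 in spinal cord, beside 0.00 and -0.01 over all genes.

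Between tissues, 5 of 19 pathway genes were called in control and 6 of 19 in SMA, against 27.9% and 26% of all genes. The targets Ccnd2, a G1 cyclin, Foxm1, a factor for mitotic genes, and Nkx2-1, a ventral forebrain factor induced by the ligand, were higher in brain in both, opposite in direction to Ptch1. Their log2 fold changes were 2.01, 1.52 and 3.93 in control and 2.35, 1.58 and 4.46 in SMA. Without control spinal cord library 1 the control values were 2.36, 2.36 and 7.34, the last against cord libraries near 0. The other targets followed, Rab34, a small GTPase of ciliogenesis, and Ccne1, a G1/S cyclin, had values in the direction of Ptch1 (-0.49 and -0.17 in control, -0.58 and -0.80 in SMA) and were not called. Ccnd2, for example, was at 230 to 270 CPM in the brain libraries and 40.0 to 86.9 CPM in spinal cord, the highest cord value being control library 1. Nkx2-1 was at 44.3 to 62.8 CPM in brain and listed at 0 to 9.71 CPM in spinal cord, where the highest value was again control library 1.

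Adcy3, the adenylyl cyclase of neuronal cilia, was lower in brain as Ptch1 was, by -0.87 in control and -1.13 in SMA on the log2 scale, with 29.0 to 38.1 CPM in brain and 60.3 to 81.8 CPM in spinal cord. Tpra1 was called lower in brain in control (-0.62), and not without control spinal cord library 1 (-0.49), where 4 of 19 pathway genes were called. Mgrn1, a ubiquitin ligase that removes Smoothened, was called lower in brain in SMA (-0.72) and had -0.34 in control. Rbx1, a subunit of cullin ligases, was called higher in brain in SMA (0.54). None of the 10 Gli processing genes was called in control. The median log2 change of the 19 genes was -0.25 in control and -0.17 in SMA, beside -0.01 and -0.03 over all genes.

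**Figure D4:**
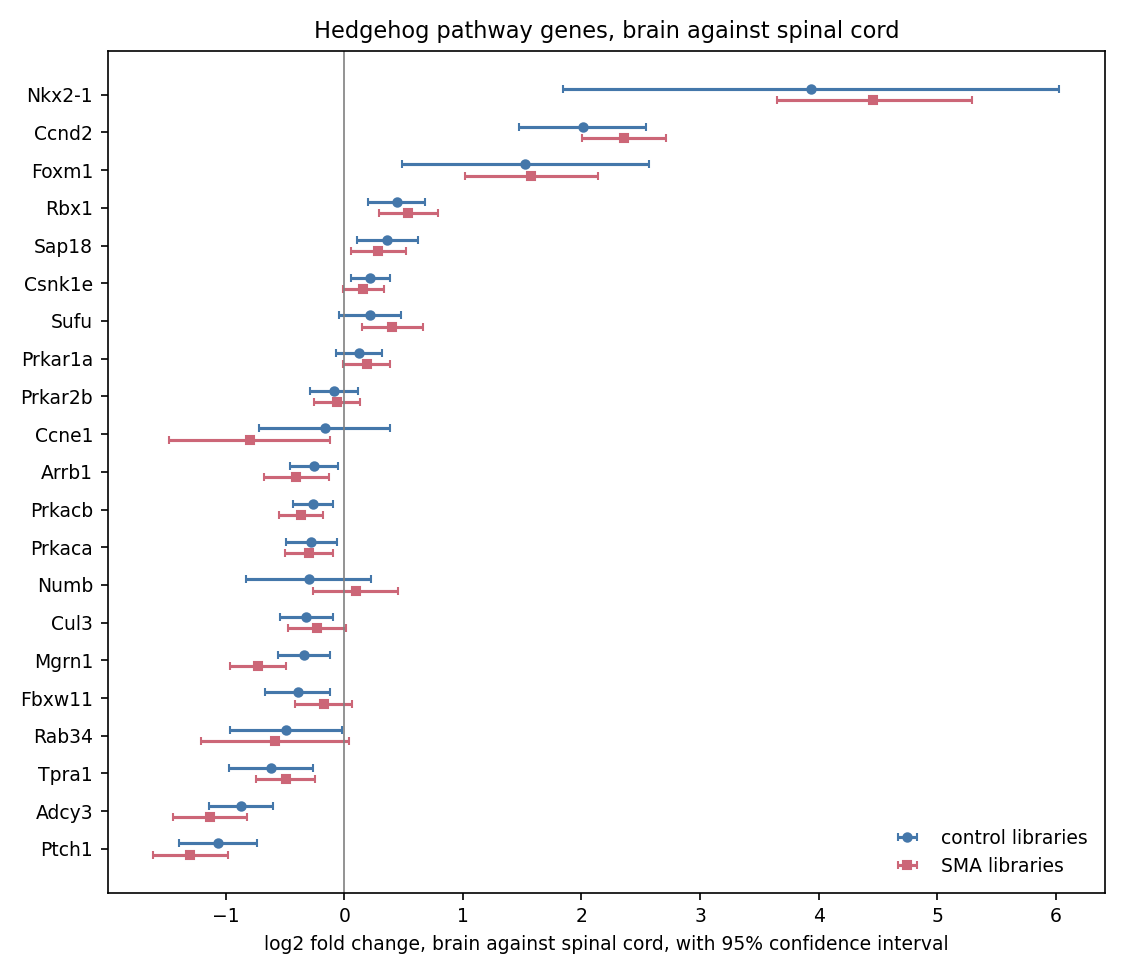
Log2 fold change of brain against spinal cord, with 95% confidence intervals, for Ptch1, Sufu and the 19 other pathway genes in control (circles) and SMA libraries (squares). Ptch1 had the lowest value of the 21 in both (-1.06 and -1.30), and Nkx2-1, Ccnd2 and Foxm1 had the highest.

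Among 1884 other genes that could be named and had at least 5 CPM on average, Usp15, a deubiquitinase, Casd1, a sialic acid acetyltransferase, and Itga3, an integrin chain, had the levels most like Ptch1 over the 12 libraries (Pearson r = 0.97 for each, on log2 CPM). All 3 had higher mean levels in spinal cord, such as 68.9 and 69.4 CPM for Itga3 in control and SMA cord against 27.9 and 23.0 CPM in brain. The libraries fall into tissue groups, and Sufu had r = -0.74 on the same measure. For deviations from the group means, the closest genes were Capn7, a calpain (r = 0.92), Slc35c2, a solute carrier (r = 0.91), and Rnf19a, a ubiquitin ligase (r = 0.90), while Sufu had r = 0.01. These are descriptions over 12 libraries that share depth and tissue, and the genes were the highest of many.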

How the data were processed

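Per the labels, cytoplasmic lysates of E14.5 brain and spinal cord were digested with RNase and ribosome-protected fragments were sequenced. The authors trimmed reads (cutadapt 4.1), removed rRNA and tRNA reads, aligned the rest with STAR 2.5.3a to GRCm38.p6, and left out genes below an FPKM percentile; the counting tool is not given in the sources used here. The deposited values are raw counts per gene, with a gene length in bases. The filter decides which genes can appear, and reads with several alignments were kept, so that counts of near-identical genes are uncertain.

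Counts of all 10481 genes were fitted in edgeR 4.0.16 (R 4.3.3; TMM, glmQLFTest, Benjamini-Hochberg adjustment over all genes), with SMA against control in 6 libraries of a tissue, brain against spinal cord in 6 libraries of a genotype, and the interaction in 12. Thresholds between genotypes were those of the study's methods: unadjusted p below 0.05, a log2 change of at least 0.5, or 0.3 for pathways. CPM used TMM factors over 12 libraries unless stated. The scripts were tested on simulated data. Alternatives were DESeq2 1.42.0, library size alone, an expression filter, the replicate block, a trend with counts per base, a fit over all 12 libraries and leaving out each library. Symbols came from the study's supplementary list, which named 1999 of the 10481 genes, and from the 10 identifiers. Smn1 was not analysed here, and genotypes rest on the labels, which say SMA or control. The alleles given above are those of the study's methods, while the count columns name the controls WT. Libraries of a group differed by more than sampling noise (chi-square per gene of 3.93 to 23.4). Deviations from group means of same-numbered libraries were correlated at r = 0.37, 0.12 and 0.16 in SMA brain and spinal cord. A differently numbered pair reached 0.22 there, so these values do not show pairing. The block changed no call of Ptch1 or Sufu in that comparison.

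Named genes were every member present, other pathway genes past a call (at most 8), the 3 nameable genes most like Ptch1, and the 2 highest of a marker list; Nes, Gmnn, Cdc6, Slc1a3, Nefl, Nefm, Rab34 and Ccne1 were named after their values were seen. The members and lists were chosen with earlier results of these data known.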

Additional observations from a re-analysis of the deposited data

How the results depend on the processing

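Over 130 refits of the Ptch1 and Sufu changes, 0 reversed, 126 stayed on their side of the threshold (the lower one between genotypes) and 4 crossed it. The count includes 17 interaction refits of each gene, which had little room to cross, since no gene of the table passed adjustment in any of them. At the lower threshold, Ptch1 in brain lost its call in 2 of 12 refits. At the higher threshold, Ptch1 in brain crossed in 2 of 12 refits and Ptch1 in spinal cord, and Sufu in either tissue, in 0 of 12. For Ptch1 in SMA against control, the log2 change ranged from -0.59 to -0.34 in brain and from -0.35 to -0.16 in spinal cord when single libraries were left out. Sufu in SMA, brain against spinal cord, ranged from 0.32 to 0.50, and passed the call without SMA spinal cord library 3. The number of genes past the higher threshold in brain (160) was 91 with DESeq2 and 169 to 273 without 1 library, and past the lower threshold (394) 220 with DESeq2. In spinal cord the higher threshold (103 genes) gave 207 with the replicate block, 169 in 1 fit over 12 libraries and 58 to 388 without 1 library, and the lower threshold (439 genes) 744 with the block and 231 to 980 without 1 library. The cause was not tested. The replicate block changed no call of Ptch1 or Sufu. Same-numbered libraries did not all deviate together in control and SMA brain (r = -0.16, 0.03 and 0.05) or in control and SMA spinal cord (0.27, 0.71 and -0.43). In control brain and cord the values were positive (0.14, 0.02 and 0.15), the smallest no higher than that of a differently numbered pair (0.02). These correlations of brain with cord do not settle which libraries came from the same embryo.

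Without division by gene length, the mean log2 ratio of Ptch1 to Sufu turned from -0.87 to 0.014 in control brain, and moved to -0.50 in SMA brain, 1.31 in control and 1.20 in SMA spinal cord, by construction of the scale. With 3 libraries a group, increases of Sufu above 1.24-fold and decreases above 1.11-fold in SMA brain lie outside the interval, and smaller ones could not be told from 0.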

Other observations

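The ratio of Ptch1 to Sufu within a library does not depend on library scaling. Chosen after the values were seen, and taken per base of gene length, it was 0.593, 0.457 and 0.607 in control brain and 0.396, 0.322 and 0.438 in SMA brain. Its absolute value depends on the length used, and it was not taken per coding base. The 3 SMA values lay below the 3 control values (1.43-fold lower on the geometric mean; exact two-sided permutation test p = 0.1, the smallest that 3 against 3 libraries can give). In spinal cord the ratio was 1.42, 1.23 and 1.39 in control and 1.62, 1.11 and 1.07 in SMA, with overlapping groups (exact permutation p = 0.7). The ratio was 2.46-fold higher in spinal cord than in brain of control embryos and 3.25-fold higher in SMA embryos, without overlap (exact permutation p = 0.1 each). This separation of the tissues was fixed by the levels given above, with Ptch1 higher and Sufu lower in every cord library. The tests between tissues therefore add no support. Over these 4 comparisons the Benjamini-Hochberg adjusted p was 0.133 for the 3 without overlap and 0.7 for the other.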
